A study of Mus musculus with 2 samples.

Results

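Genes of fibrinolysis, and of the start and the brakes of clotting, were followed across the cell classes of the mouse heart: Plat, Plau, Plaur, Serpine2, Thbd, Procr, Tfpi and F3. They were chosen by symbol, as 8 of the 31053 genes in both libraries. The cells were cardiac non-cardiomyocytes of male mice of genotype C57BL6/J wildtype on day 20 after sham surgery or after transverse aortic constriction (TAC), a banding of the aorta that puts the left ventricle under pressure. No other allele or agent is named in the labels for either group. Hearts were cleared with EDTA, digested with collagenases and a protease, freed of cardiomyocytes by settling, of red cells by lysis and of debris, and viable DAPI-negative cells were sorted for 3' droplet capture. Each group was 1 library on a lane of its own, and the labels do not say how many hearts went into it. No difference described here therefore has a replicate check, no test was made, and every interval covers counting error only.

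Plasmin, the protease that dissolves fibrin and cleaves matrix proteins, is made from plasminogen by the activators tPA (Plat) and urokinase (Plau). Urokinase is held at the cell surface by its receptor uPAR (Plaur), and protease nexin-1 (Serpine2) is a serpin that inhibits both activators and thrombin. On the clotting side, tissue factor (F3) starts coagulation, TFPI (Tfpi) blocks that start, and thrombomodulin (Thbd) with the endothelial protein C receptor (Procr) turns thrombin toward activating the anticoagulant protein C. Thrombomodulin is best known from the vessel lining, and tissue factor from the cells around vessels.

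RNA molecules were counted as unique molecular identifiers (UMIs). The sham matrix sums to 42490230 UMIs over 8426 barcodes and the TAC matrix to 96003109 over 8901. After filtering, 7894 and 7854 cells were kept at a median depth of 4881.5 and 11158 UMIs, and 15 barcodes occurred in both libraries. Cells were placed in classes by marker genes, so all class names were rebuilt here and are written "-like"; the authors' own cell names are not used, and results may differ from theirs for that reason. Fibroblast-like cells numbered 6127 (sham) and 5440 (TAC), macrophage-like cells 1151 and 980, blood endothelial-like cells 178 and 662, and lymphatic endothelial-like cells 56 and 246. Mural-like cells, the pericytes and smooth muscle of vessel walls, numbered 36 and 74, too few in the sham library for a ratio. Levels are UMIs summed over a class per 1000000 UMIs of that class (CPM) with exact Poisson 95% intervals, and ratios of the libraries carry exact conditional 95% intervals. A gene was counted as at least 2-fold apart when it also reached 10 CPM in either library.

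The promoters of 5 of the 8 genes are in the RefSeq table for GRCm38.p6, the mm10 build that the files use, with 6 promoter windows between them. They were searched on both strands for TGANTCA, letters that contain the recognition sequence of the Fos and Jun factors. Genes of those factors stand in the list of digestion-response genes that is set beside the results below. The letters occur in 6.75% of all 32851 windows of 250 bases upstream of a start site, and in those of Plaur, Procr and F3. The matches are shown here with 40 bases on either side, on the plus strand, which is the coding strand of all 3 genes, and with the matching letters in capitals. The Plaur stretch is chr7:24462374-24462460, with its match 69 bases before the start site, the Procr stretch is chr2:155751023-155751109, 154 bases before its RefSeq start site, which lies inside the gene span given below from GENCODE, and the F3 stretch is chr3:121723351-121723448, with matches 146 and 135 bases before its start site.
Plaur: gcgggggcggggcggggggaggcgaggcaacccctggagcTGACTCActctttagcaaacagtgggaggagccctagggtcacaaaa
Procr: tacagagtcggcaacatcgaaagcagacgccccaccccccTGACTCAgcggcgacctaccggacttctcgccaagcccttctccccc
F3: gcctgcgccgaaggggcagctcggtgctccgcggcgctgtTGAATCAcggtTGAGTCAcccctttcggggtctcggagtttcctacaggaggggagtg
A match in these letters describes the sequence and is not a measured binding site. The windows of Serpine2 and Tfpi did not hold these letters.

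The first comparison asked which classes carried each gene. Most UMIs of F3 and Serpine2 came from fibroblast-like cells. These held 98.1% of all F3 UMIs of the sham library and 98.4% of those of the TAC library, and 97.4% and 96.3% of those of Serpine2. The same cells held most UMIs of Plat (93.5% and 92.9%), Tfpi (88.9% and 85.8%) and Plau (70.9% and 74.1%) as well. Fibroblast-like cells were also 77.6% and 69.3% of the cells kept, and such shares move with the cells captured. By level Serpine2 was not confined to fibroblasts. In TAC it was at 683 CPM there, 511 CPM in mural-like and 337 CPM in lymphatic endothelial-like cells. Among the 6 classes plotted, Plat was at its highest CPM in mural-like and, in the sham library, blood endothelial-like cells. Thbd was highest there in the 2 endothelial classes, and Plaur had no single main class among these 6. Higher Plaur levels stood in small classes outside the plot. Monocyte-like cells were at 367 CPM in sham and 553 CPM in TAC, and TAC neutrophil-like cells at 335 CPM. The plot of levels by class shows each gene in both libraries.

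**Figure D1:**
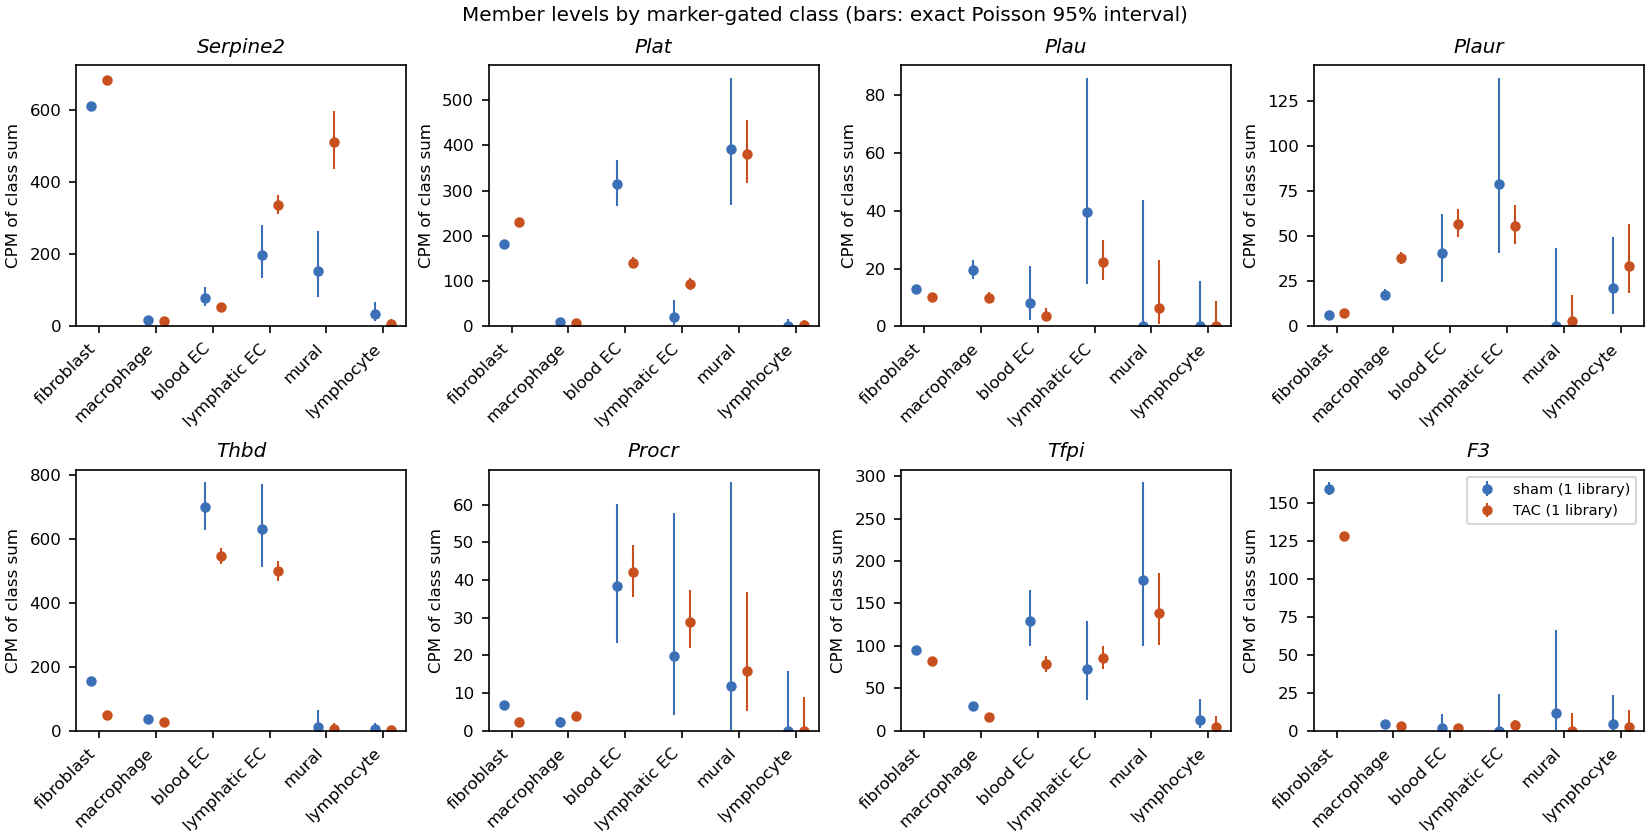
Level of each of the 8 genes (y axis, CPM of the summed UMIs of a class) in 6 marker-gated classes (x axis; EC, endothelial cells; lymphocyte, B, T and NK cells together), with sham in blue and TAC in orange. Points are 1 library each and bars are exact Poisson 95% intervals; F3 lies above 100 CPM in fibroblast-like cells alone, and Thbd above 500 CPM in the 2 endothelial classes alone.

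**Figure D2:**
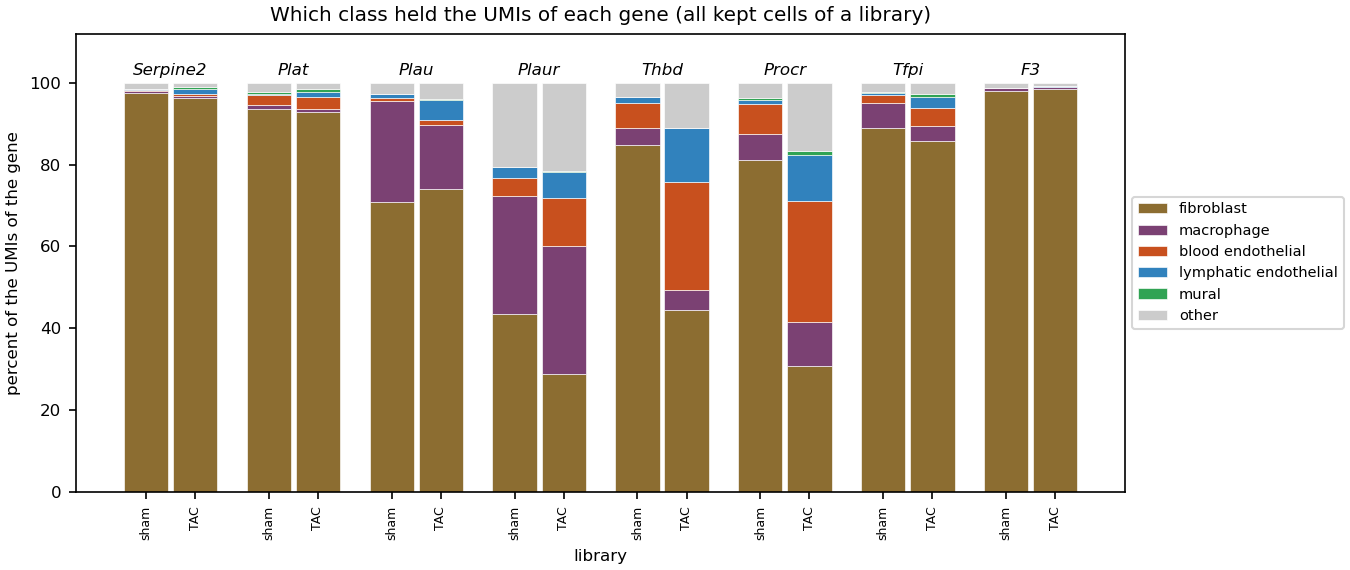
Percent of all UMIs of each gene (y axis) found in each class, in the sham and TAC libraries (x axis). The fibroblast share of Thbd is 84.7% in the sham bar and 44.3% in the TAC bar, while those of F3 and Serpine2 stay above 96% in both.

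The tPA gene Plat (ENSMUSG00000031538, chromosome 8, 22757727 to 22782844) was at 182 CPM (177 to 187) in sham and 230.2 CPM (226.6 to 233.9) in TAC fibroblast-like cells, from 5748 and 15390 UMIs. The TAC level was 1.26-fold higher (1.23 to 1.30), a difference beyond counting error but well under 2-fold. Blood endothelial-like cells went the other way, with 314 CPM (155 UMIs) in sham and 141 CPM (503 UMIs) in TAC, 2.23-fold lower (1.85 to 2.67). Plat was the 1 member at least 2-fold lower there, among 6 of 8 members that reached 10 CPM, where 6.4% of all 9442 genes were, and none was at least 2-fold higher, where 5.96% were. In lymphatic endothelial-like cells it was at 19.7 CPM in sham, from 3 UMIs, and at 93.2 CPM in TAC, from 184 UMIs, a ratio of 4.72 (1.59 to 23.1) that rests on those 3 UMIs. It was the 1 of 7 members at 10 CPM or more to be at least 2-fold higher in that class, where 12.1% of all 9204 genes were, and none was at least 2-fold lower, where 10.8% were. Mural-like cells held 391 CPM (269 to 549) and 382 CPM (317 to 456), and the order of mural, blood endothelial and fibroblast levels in sham separated fibroblasts alone beyond the intervals. Macrophage-like cells were under 10 CPM in both libraries.

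The mix of vessel types in the blood endothelial class also differed between the libraries, and its part in the Plat value was not tested. Cells gated by capillary markers were 34.3% of this class in sham and 73.4% in TAC, endocardial-gated cells 25.8% and 7.85%, arterial-gated cells 10.1% and 1.66%, and cells of no subtype 29.8% and 17.1%. These gates used counts that were not thinned, and the class had a median depth of 2309.5 UMIs in sham and 4619.5 in TAC. The part of depth in the mix was not tested. Within capillary-gated cells Plat was at 159 CPM in sham and 125 CPM in TAC, a ratio of 0.784 whose interval, 0.503 to 1.29, spans 1. Within endocardial-gated cells it was at 254 and 67.4 CPM, 3.77-fold lower (2.37 to 6.03) from 42 and 37 UMIs, and in cells of no subtype it was 2.02-fold lower. The lower Plat level was thus seen in endocardial-gated and ungated cells, and not resolved in capillary ones. With each cell thinned to 1 depth the class-wide log2 ratio was -0.68, and as a mean over cells -0.80, against -1.15, so the 2-fold mark was not reached under either.

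The urokinase gene Plau (ENSMUSG00000021822, chromosome 14, 20836660 to 20843385) was a low transcript everywhere. In fibroblast-like cells it was at 13.02 CPM (411 UMIs) in sham and 10.1 CPM (674 UMIs) in TAC, a ratio of 0.774 (0.684 to 0.878). Macrophage-like cells held 19.6 CPM (143 UMIs) in sham and 9.98 CPM (141 UMIs) in TAC, 1.96-fold lower (1.54 to 2.49), just short of 2-fold. Lymphatic endothelial-like cells were at 39.5 CPM from 6 UMIs and 22.3 CPM from 44 UMIs, with overlapping intervals. Blood endothelial-like cells held 4 and 13 UMIs, under 10 CPM, and B, T and NK-like cells held none in either library.

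The urokinase receptor gene Plaur (ENSMUSG00000046223, chromosome 7, 24462484 to 24475968) was the member that stood higher in TAC macrophage-like cells. It was at 17.7 CPM (129 UMIs) in sham and 37.9 CPM (536 UMIs) in TAC, 2.15-fold higher (1.77 to 2.62). Of the 5 members at 10 CPM or more in that class it was the 1 at least 2-fold higher, where 3.4% of all 8448 genes were, and none was 2-fold lower, where 1.44% were. At 1500 UMIs per cell, 1.87% of sham (1.16 to 2.84) and 4.32% of TAC macrophage-like cells (3.13 to 5.80) had a Plaur UMI. Unthinned shares were 8.25% and 23.4%, with 4711 and 9899.5 UMIs as the median depths. The equal-depth shares of B, T and NK-like cells were 3.23% of 62 sham and 7.06% of 85 TAC cells, above those of macrophages, so no difference is read from the macrophage shares; the UMIs of these cells were in B cell-like cells, but for 1.

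Subsets of the macrophages shared this direction. Cells with 2 or more UMIs of Ccr2, a receptor of monocyte-derived cells, stood at 29.1 CPM of Plaur in sham and 56.2 CPM in TAC, and cells at 0 Ccr2 at 16.7 and 30.0 CPM. The ratio of the libraries was 1.94 (1.36 to 2.84) in the first and 1.80 (1.39 to 2.34) in the second, and Plaur was higher in Ccr2-gated cells by 1.74-fold in sham and 1.87-fold in TAC. The 5 neutrophil markers were all seen in macrophage-like cells and summed to 198 CPM in sham and 1829 CPM in TAC. In TAC that sum was 1.22% of the neutrophil-like level, 149610 CPM, while Plaur was at 11.3% of its neutrophil-like level. The 6 monocyte markers, which include Ccr2, summed to 282 and 483 CPM, 9.54% of the monocyte-like level in TAC, where Plaur was at 6.86% of its monocyte-like level; their part in the result was not tested.

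Outside macrophages Plaur was at 40.5 and 56.9 CPM in blood endothelial-like and 79.0 and 55.7 CPM in lymphatic endothelial-like cells, with intervals of the ratio that span 1 in both. In fibroblast-like cells it was under 10 CPM, at 6.18 and 7.36. Some fibroblast states, gated by 2 or more UMIs of marker genes, stood higher. Of cells that carried Gdf15, a stress-response cytokine, 32 sham cells stood at 24.4 CPM and 18 TAC cells at 60.5 CPM, 3.97-fold (1.27 to 9.44) and 8.34-fold (4.28 to 14.7) above the other fibroblast-like cells of their library, from 5 and 12 UMIs. Cells gated by Acta2 and Tagln, markers of contractile cells, were also higher, 8.11-fold in 35 sham cells and 1.84-fold in 277 TAC cells, as were cells with Ccl11, 1.71-fold (1.09 to 2.58) in sham and 3.07-fold (1.12 to 6.72; 6 UMIs) in TAC. These ratios depend on the gate: at 1 UMI the Gdf15 ratio was 4.24 in TAC, and those of Acta2 and Tagln were 4.53 in sham and 1.26 in TAC, where the interval, 0.994 to 1.58, spans 1.

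The protease nexin-1 gene Serpine2 (ENSMUSG00000026249, chromosome 1, 79794197 to 79861180) was at 611 CPM (602 to 620) in sham and 683 CPM (676 to 689) in TAC fibroblast-like cells. The difference was 1.12-fold (1.10 to 1.14), and at equal depth 55.0% of the cells of each library had a Serpine2 UMI. In B, T and NK-like cells, which should lack the gene, 6.45% of 62 sham and 1.18% of 85 TAC cells had one at that depth; median depths were 1790 and 3680.5 UMIs there, and 4993 and 12128 UMIs in fibroblast-like cells. Lymphatic endothelial-like cells were at 197 CPM (30 UMIs) and 337 CPM (666 UMIs), 1.71-fold higher in TAC (1.19 to 2.55). Mural-like cells were at 154 CPM (82.1 to 264) in sham and 511 CPM (436 to 596) in TAC, from 13 and 162 UMIs. Blood endothelial-like cells were at 79.0 and 53.5 CPM. The macrophage-like values of 18.4 and 14.1 CPM were 3.00% and 2.06% of the fibroblast level, where the 9 fibroblast markers reached a median of 2.41% and 1.93% in the same cells, so they stand at about the level of free fibroblast RNA.

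The thrombomodulin gene Thbd (ENSMUSG00000074743, chromosome 2, 148404466 to 148408188) showed the widest gap of any member in fibroblast-like cells. It was at 157 CPM (152 to 161; 4948 UMIs) in sham and 49.0 CPM (47.4 to 50.7; 3278 UMIs) in TAC, 3.20-fold lower (3.06 to 3.34). Of the 6 members at 10 CPM or more there it was the 1 at least 2-fold lower, where 2.51% of all 8815 genes were; none was at least 2-fold higher, where 3.05% were. At 1500 UMIs per cell, 17.3% of sham (16.4 to 18.3) and 6.01% of TAC fibroblast-like cells (5.39 to 6.68) had a Thbd UMI, and without thinning 40.8% and 30.8% did. In B, T and NK-like cells the equal-depth shares were 1.61% of 62 cells and 0 of 85, which allows up to 3.53%.

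Thbd in fibroblasts was not at the level of free endothelial RNA. It stood at 22.4% of the blood endothelial level in sham and 8.96% in TAC, while the 9 blood endothelial markers stood at a median of 0.256% and 0.323% in the same cells and at most 6.24% and 1.83%. Summed, those 9 markers were at 85.1 CPM in sham and 80.7 CPM in TAC fibroblast-like cells, none at 0. The 2 endothelial classes themselves had much closer Thbd levels in the 2 libraries. Blood endothelial-like cells were at 701 CPM (346 UMIs) and 547 CPM (1952 UMIs), 1.28-fold lower in TAC (1.14 to 1.44), and lymphatic endothelial-like cells at 632 and 500.3 CPM, 1.26-fold lower (1.01 to 1.56). Whether the fibroblast and endothelial ratios differ was not tested, as each rests on 1 library per group. Of all Thbd UMIs, 84.7% in sham and 44.3% in TAC came from fibroblast-like cells, and 5.92% and 26.4% from blood endothelial-like cells, a division that also moves with the number of cells captured in each class.

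Genes that respond to tissue digestion differed between the libraries as well. All 11 of a list that holds Fos, Jun, Egr1 and Atf3 were lower in TAC fibroblast-like cells, 7 of them at least 2-fold, and their sum was 21562 CPM in sham and 11308 CPM in TAC. Fibroblast-like cells of both libraries together were divided into 3 groups of similar size by these UMIs at equal depth. The Thbd ratio was 0.377 (0.346 to 0.412) in the low, 0.247 (0.228 to 0.268) in the middle and 0.308 (0.275 to 0.345) in the high group. Each group is wide, and the high group runs from 74 to 347 of these UMIs with 2769 sham and 609 TAC cells. This division was chosen after the data were seen, and the part of the digestion response in the Thbd value was not tested. The same list summed to 19210 and 14402 CPM in macrophage-like, 10806 and 6861 CPM in blood endothelial-like and 11882 and 10925 CPM in lymphatic endothelial-like cells. Its part in the Plaur and Plat values of those classes was not tested.

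Thbd was also read within fibroblast states, set by UMIs of marker genes at 3800 UMIs per cell. Cells with Pi16 or Dpp4, markers of adventitial fibroblasts, were at 182 CPM in sham and 55.6 CPM in TAC. That was 1.50-fold (1.40 to 1.60) and 1.76-fold (1.60 to 1.93) above the other fibroblast-like cells. The gate took 2957 of 4974 sham and 3739 of 5222 TAC cells at that depth. It thus holds most fibroblast-like cells and does not set apart a distinct adventitial population. In TAC, 982 cells with Comp or Thbs4, matrix genes of the pressure-loaded heart, were at 66.1 CPM, 1.47-fold above the rest (1.36 to 1.59), while 32 such sham cells were at 101 CPM, 0.635-fold the rest (0.376 to 1.00). Cells at 0 Postn, which encodes periostin and marks activated fibroblasts, were at 159 CPM in sham, 1.04-fold the rest (0.910 to 1.20), and at 41.1 CPM in TAC, 0.785-fold (0.723 to 0.851). The gap between the libraries ran through the states. The TAC to sham ratio was 0.305 in cells with Pi16 or Dpp4 and 0.258 in cells at 0 Postn. It was 0.317 in cells with Postn but neither Comp nor Thbs4, and 0.183 in cells with Vegfd, Adam33 or Alkal2. It was closest to 1 in matrix cells, at 0.654 (0.411 to 1.11), where sham gave 32 cells and 18 UMIs.

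**Figure D3:**
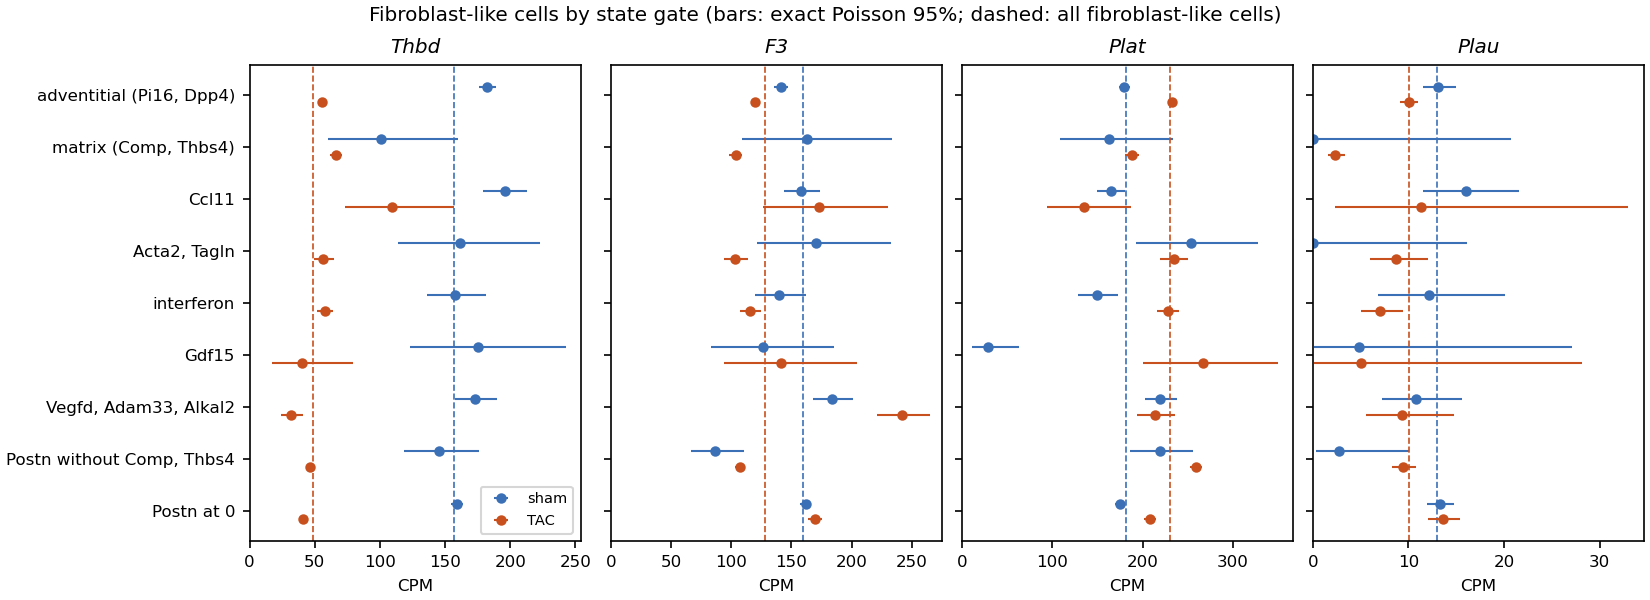
Level of Thbd, F3, Plat and Plau (x axes, CPM) in fibroblast-like cells inside each state gate (y axis; gates may overlap), with sham in blue and TAC in orange and exact Poisson 95% intervals. Dashed lines give the level over all fibroblast-like cells; for Thbd the TAC point lies left of the sham point in every state, and for Plau the matrix cells of TAC lie far left of the line, at 2.33 CPM.

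Other members also differed by state. F3 was higher in cells at 0 Postn, 1.79-fold (1.50 to 2.16) in sham and 1.51-fold (1.45 to 1.58) in TAC. It was lower in cells with Pi16 or Dpp4, 0.762-fold and 0.791-fold. Cells with Vegfd, Adam33 or Alkal2 were at 184 CPM of F3 in sham and 242 CPM in TAC, 1.18-fold and 1.94-fold above the rest. In those cells and in cells at 0 Postn F3 was not lower in TAC, with ratios of 1.32 (1.16 to 1.50) and 1.05 (1.00 to 1.10), unlike the class as a whole. Nor was F3 resolved as lower in cells with Postn but neither Comp nor Thbs4, at 1.24 (0.964 to 1.62), or with Ccl11, at 1.09 (0.788 to 1.48). The F3 ratio was 0.850 in cells with Pi16 or Dpp4 and 0.636 in matrix cells. It was 0.606 in cells with Acta2 or Tagln and 0.829 in interferon-gated cells. Plau in TAC matrix cells was 0.195-fold the rest (0.131 to 0.282), from 30 UMIs, and Plat there was 0.781-fold the rest, while Plat in TAC cells with Postn but neither Comp nor Thbs4 was 1.21-fold (1.17 to 1.25). At 3800 UMIs per cell, Thbd was seen in 34.9% of sham fibroblast-like cells with and 33.9% of those without Serpine2, and in 12.1% of TAC cells with and 13.7% of those without F3. In TAC it was seen in 6.40% of 172 cells with Plau against 13.4% without, and in 23.8% of 42 cells with Procr against 13.1% without; the sham shares were 32.9% against 34.8% for Plau and 41.2% against 34.6% for Procr.

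Blood endothelial subtypes split on Thbd. Capillary-gated cells were at 729 CPM in sham and 409 CPM in TAC, 1.78-fold lower (1.43 to 2.20), and endocardial-gated cells at 587 and 944 CPM, 1.61-fold higher (1.29 to 2.02). Serpine2 in endocardial-gated cells was 2.95-fold lower in TAC, at 194 and 65.6 CPM from 32 and 36 UMIs. Serpine2 in cells of no subtype was 2.63-fold higher (1.15 to 7.41), from 6 and 69 UMIs, and the capillary-gated cells held 1 and 85 UMIs, with an interval of the ratio that spans 1. The class-wide ratios of Thbd and Serpine2 thus average over subtypes with unlike ratios, and the difference between subtypes was not tested.

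The protein C receptor gene Procr (ENSMUSG00000027611, chromosome 2, 155751117 to 155755471) was under 10 CPM in fibroblast-like cells, at 6.81 CPM (215 UMIs) in sham and 2.32 CPM (155 UMIs) in TAC. It was 2.94-fold lower there (2.38 to 3.63), the same direction as Thbd, but below the minimum level of the count. Blood endothelial-like cells were at 38.5 CPM (19 UMIs) and 42.1 CPM (150 UMIs), a ratio of 1.09 whose interval, 0.676 to 1.87, spans 1. Lymphatic endothelial-like cells were at 19.7 and 28.9 CPM, from 3 and 57 UMIs. Macrophage-like cells were at 2.33 and 3.82 CPM, from 17 and 54 UMIs, with an interval of the ratio, 0.937 to 3.02, that spans 1. Endocardial-gated cells were at 54.5 and 107 CPM from 9 and 59 UMIs. Among all UMIs of the gene, the fibroblast share was 81.1% in sham and 30.7% in TAC.

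The tissue factor pathway inhibitor gene Tfpi (ENSMUSG00000027082, chromosome 2, 84432855 to 84476775) was lower in TAC in 3 of the 4 classes compared, each time by less than 2-fold. Fibroblast-like cells were at 94.8 and 82.1 CPM, a ratio of 0.866 (0.828 to 0.906), and macrophage-like cells at 28.9 and 16.6 CPM, 1.74-fold lower (1.44 to 2.11). Blood endothelial-like cells were at 130 and 78.2 CPM, 1.66-fold lower (1.24 to 2.18). Endocardial-gated cells among them were at 175 and 229.5 CPM with a ratio whose interval, 0.868 to 2.03, spans 1. Capillary-gated cells were at 45.55 and 39.3 CPM, with an interval, 0.381 to 2.41, that also spans 1. In cells of no subtype Tfpi was at 170 and 88.9 CPM, a ratio of 0.522 (0.330 to 0.846). The part of the vessel-type mix in the class-wide Tfpi value was not tested. Lymphatic endothelial-like cells were at 72.4 and 85.6 CPM with overlapping intervals. Mural-like cells were at 178 CPM from 15 UMIs and 139 CPM from 44 UMIs.

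The tissue factor gene F3 (ENSMUSG00000028128, chromosome 3, 121723537 to 121735048) was at 159 CPM (155 to 164) in sham and 128 CPM (126 to 131) in TAC fibroblast-like cells, a ratio of 0.805 (0.777 to 0.834). At equal depth 19.8% and 16.8% of these cells had an F3 UMI, against 48.2% and 62.8% without thinning, and none of 62 sham or 85 TAC lymphocyte-like cells had one, which allows up to 4.84% and 3.53%. Macrophage-like cells were at 4.66 and 3.19 CPM, 2.92% and 2.48% of the fibroblast level, where fibroblast markers reached at most 3.03% and 2.51%. Blood endothelial-like cells held 1 and 7 UMIs and lymphatic endothelial-like cells 0 and 7, so F3 outside fibroblasts was at or near the free-RNA level in the 3 other classes compared.

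**Figure D4:**
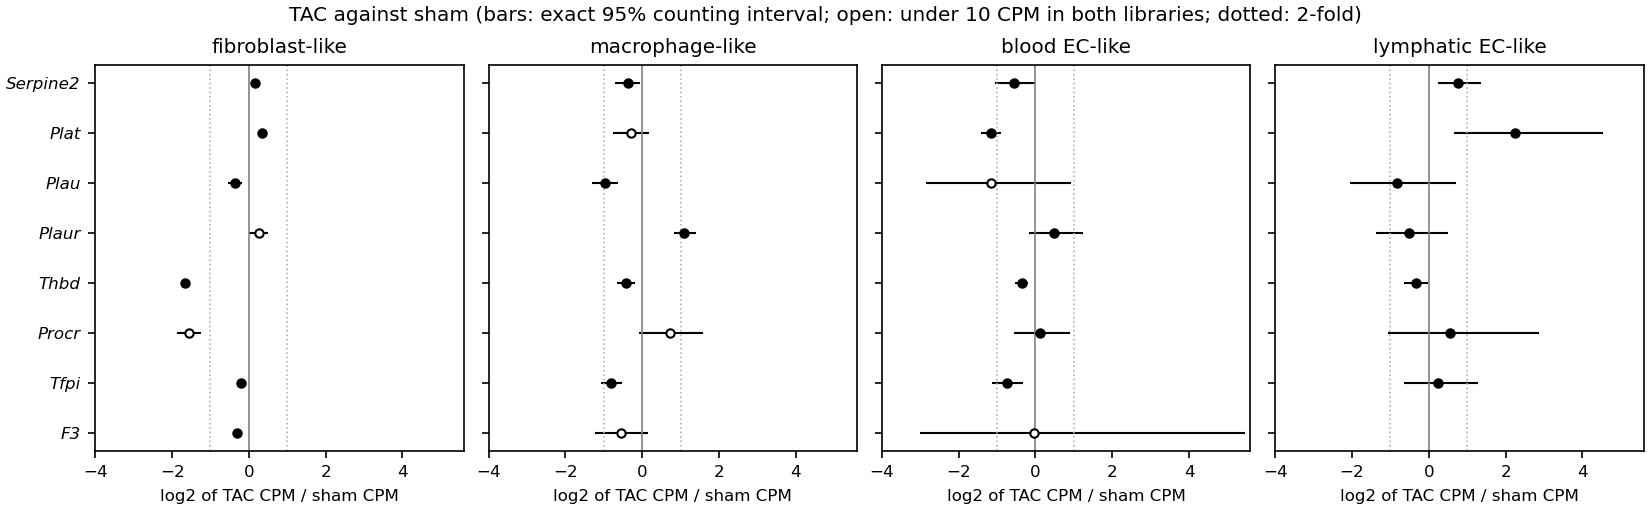
Ratio of TAC to sham level of each gene (x axis, log2 of the CPM ratio) in 4 classes, with exact 95% counting intervals; open points were under 10 CPM in both libraries and dotted lines mark 2-fold. F3 has no point in lymphatic endothelial-like cells, where sham held 0 UMIs; Thbd in fibroblast-like, Plaur in macrophage-like and Plat in both endothelial classes are the filled points beyond the dotted lines.

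A list of 50 other genes of coagulation and fibrinolysis was read the same way. In fibroblast-like cells 19 of them reached 10 CPM, with 3 at least 2-fold higher in TAC and none lower, where 3.05% and 2.51% of all genes were, and a median log2 ratio of 0.27 against -0.06 over all genes. Among them were Serpina3n, an acute-phase serpin, at 53.4 and 378 CPM, and the thrombin receptor gene F2r at 111 and 298 CPM. In macrophage-like cells 16 were measured, with 3 higher and none lower, where 3.4% and 1.44% of all genes were, and a median of -0.29 against -0.03. Among them were Vwf, an endothelial and platelet adhesion protein, at 7.67 and 30.3 CPM, and Thbs1 at 14.4 and 42.9 CPM. The 9 blood endothelial markers in the same macrophage-like cells summed to 34.2 and 206 CPM, and their part in the Vwf value was not tested.

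In blood endothelial-like cells 22 of the list were measured, with 4 higher and 1 lower in TAC, where 5.96% and 6.4% of all genes were, and a median of -0.21 against -0.08. Serpina3n had 2 and 111 UMIs, a ratio of 7.68 (2.08 to 64.2). In TAC it was at 31.1 CPM there, beside 378 CPM in fibroblast-like cells. The 9 fibroblast markers reached up to 9.52% of their fibroblast level in TAC blood endothelial-like cells. The part of free fibroblast RNA in the Serpina3n value was not tested. Serpinf1 and Lrp1 followed from 3 and 4 sham UMIs, and the interval of Lrp1 spans 1. In TAC they were at 21.9 and 17.4 CPM there, beside 1188.5 and 787 CPM in fibroblast-like cells. The 9 fibroblast markers were at a median of 2.54% of their fibroblast level in the blood endothelial-like cells. Both genes thus stand near the level of free fibroblast RNA, and its part in their values was not tested. A2m, an inhibitor of many proteases, was 8.43-fold lower from 14 and 12 UMIs. In lymphatic endothelial-like cells 22 were measured, with 7 higher and 3 lower, where 12.1% and 10.8% of all genes were, and a median of 0.27 against -0.09. Serpina3n was at 26.3 and 370 CPM, 14.0-fold higher (5.46 to 51.7), Itgb3 and Vldlr each rested on 1 sham UMI, and Serpinf1 had 0 and 20 UMIs, with the TAC level below what 3 sham UMIs would give. Vwf was 14.4-fold lower, from 10 and 9 UMIs, Gas6, a ligand of the TAM receptors, 2.32-fold lower, and Tfpi2 2.04-fold lower with an interval of the ratio that spans 1.

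Patterns over the 4 classes compared in both libraries, 8 points in all, were set against 5744 other genes by Pearson correlation of log2(CPM + 1). The points share 2 libraries of unlike depth, so the values are descriptions. Nearest to Thbd were Limch1, Calcrl and Tspan12 (0.991 to 0.980), and among the other members Procr, at 0.947. F3 lay nearest to Prrx1, Heyl and Lama2 (0.995 to 0.992), and farthest from Plaur among the members, at -0.948. Serpine2 lay nearest to Il11ra1, Foxp2 and Camk2n1, and Plat to Rnf11, Gatad1 and Ube2h, with Tfpi the nearest member to Plat at 0.887. Plau was nearest to Eid1, Hsd17b4 and Vegfb, Plaur to Arap3, Tmed5 and Gngt2, Procr to Kif26a, Trim24 and Uqcrc2, and Tfpi to Abhd14b, Vim and Sav1.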

How the data were processed

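Per the file headers, the authors made the UMI counts with Cell Ranger 3.1.0; the values are unnormalized and cover cell-containing barcodes, and mm10 and Seurat are named in the submitters' processing notes. Of 31053 gene IDs, 30934 are in GENCODE vM21, which gave the gene coordinates. Barcodes under 500 genes or 1000 UMIs, or above 15% mitochondrial, were removed (462 sham, 901 TAC). So were doublets (70 and 146), called per library by Scrublet (Scanpy 1.11.5; expected rate 0.07).

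A cell took the class, out of 16, with the highest mean of its scaled log markers if that score reached 0.3, led classes of another lineage by 0.1 and of its own by 0.05, and at least 3 markers were seen. Scaling used the mean of the 50 highest cells per gene, and 201 sham and 225 TAC cells stayed unnamed. These thresholds were set with the data in view, and no class had a marker of another class among its 10 leading genes. UMIs were summed per class and library, log2 ratios used CPM + 1, and a sum of 0 was bounded with 3 UMIs and a share of 0 with 3 cells of the total. Shares carry exact Clopper-Pearson 95% intervals after thinning to 1500 UMIs per cell, and leave out shallower cells; in fibroblast-like cells these were 84 sham and 49 TAC cells. States were gated at 2 UMIs of any of their genes after thinning fibroblasts to 3800 and macrophages to 3200 UMIs, and their levels use the full UMIs of the same cells; endothelial subtypes used marker scores. The ratios, their intervals and the 2-fold calls were tested on simulated Poisson class sums with known folds. The gates, thinning, doublet calls and variation between libraries were not simulated. Alternatives changed the pseudocount, cell filter, doublet removal, gates, clustering (Leiden, resolution 1.0), depth, averaging, totals, minimum level and state gates.

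All 8 members are named in every class compared, with up to 4 higher and 4 lower genes of the 50-gene list by log2 ratio and the 3 genes most like each member among those at 50 CPM or more. A gene that this rule names is not reported here. The members and lists were chosen with earlier results of these data known. Mouse promoter sequences are from RefSeq.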

Additional observations from a re-analysis of the deposited data

Results flagged for a closer look

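Serpine2 differed between classes in its direction under TAC. The ratio of TAC to sham was 1.12 in fibroblast-like cells and 1.71 in lymphatic endothelial-like cells, but 0.678 in blood endothelial-like cells, and all 3 counting intervals exclude 1. The blood endothelial upper bound was 0.982, and in that class the endocardial-gated cells, 25.8% of sham and 7.85% of TAC cells, held the largest sham level, 194 CPM, against 7.59 CPM from 1 UMI in capillary-gated cells. Within the subtypes the ratio was 0.339 (0.204 to 0.563) in endocardial-gated cells, 2.63 (1.15 to 7.41) in cells of no subtype and 5.00 (0.873 to 199.7) in capillary-gated cells, so the class-wide value averages unlike subtypes, and the part of their mix was not tested. The 9 fibroblast markers in blood endothelial-like cells summed to 3123 CPM in sham and 1948 CPM in TAC, and their part in this ratio was not tested.

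Plat had a ratio of 1.26 in fibroblast-like cells and 0.449 in blood endothelial-like cells, with intervals that lie on opposite sides of 1. In capillary-gated cells the ratio was 0.784 with an interval that spans 1, and the part of the vessel-type mix in the class-wide value was not tested. For both genes the difference between classes itself was not tested, since each ratio compares 1 library with 1 library.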

How the results depend on the processing

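No paired analysis was possible because each group is 1 library. Thbd in fibroblast-like cells kept its direction under all 9 alternatives for every class, between -1.71 and -1.50 on the log2 scale (-1.66 as reported), with -1.50 at a pseudocount of 10 CPM. It was -1.39 and -1.99 in the groups with low and middle digestion-response UMIs, and within states -0.61 (matrix), -0.84 (Ccl11), -1.50 (Acta2, Tagln), -1.43 (interferon), -2.41 (Vegfd, Adam33, Alkal2) and -1.93 (Postn at 0). Its shares at 750 UMIs were 9.58% and 3.16%. Plaur in macrophage-like cells was 1.06 and became 0.79 at a pseudocount of 10 CPM. Plat in blood endothelial-like cells was -1.15 and became -0.68 with thinned cells and -0.80 as a mean over cells. The 1 member at least 2-fold apart in macrophages became 0 at that pseudocount and with the stricter cell filter, and 2 with stricter gates. In blood endothelial-like cells it became 2 with no cell filter, the stricter filter or Leiden clusters, and 0 with thinned cells or a mean over cells. In lymphatic endothelial-like cells it became 4 with the stricter filter and 2 with Leiden clusters or thinned cells. Shares over all genes were not taken under these alternatives, so nothing is read from these changes in count. For the 50-gene list at a minimum of 50 CPM, 0 of 11 measured genes were at least 2-fold higher in macrophages, where 2.81% of all genes were. In blood endothelial-like cells 0 of 11 were higher and 0 lower, where 3.67% of all genes were in each direction. In lymphatic endothelial-like cells 3 of 15 were higher and 3 lower, where 5.64% and 7.05% of all genes were. With no minimum, 6 of 42 measured genes were higher in fibroblasts and 5 of 41 in macrophages, where 2.22% and 3.41% of all genes were. In blood endothelial-like cells 5 of 37 and in lymphatic endothelial-like cells 11 of 28 were then higher, where 10.9% and 24.5% of all genes were. Plau in TAC matrix cells was 0.357-fold the rest with gates at 1 UMI, against 0.195. With Leiden clusters the log2 ratio of Plaur in blood endothelial-like cells turned from 0.48 to -0.26 and that of Serpine2 moved from -0.55 to -1.43; thinned, Plaur in lymphatic endothelial-like cells turned from -0.50 to 0.18, and Tfpi from 0.24 to -0.13. Procr there moved from 0.53 to 1.68 with the stricter filter. In macrophage-like cells Serpine2, at -0.36, kept its sign under 5 of 9 alternatives and reached 0.29 with thinned cells, Plat turned from -0.27 to 0.77 with no cell filter, and F3 from -0.43 to 0.23 with stricter gates. F3 in blood endothelial-like cells, at -0.03, lay between -1.16 and 0.11. The causes were not tested. Depth limits the sham endothelial classes most, at 493506 and 151912 UMIs.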

Other observations

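Classes too small for a comparison also carried members. Neutrophil-like cells numbered 6 in sham and 69 in TAC, and the TAC cells held 52 Plaur UMIs, 335 CPM (250.1 to 439), with Plau at 0. Monocyte-like cells numbered 8 and 13, with Plaur at 367 CPM (195 to 628; 13 UMIs) in sham and 553 CPM (427 to 705; 65 UMIs) in TAC, intervals that overlap. Thbd in the same cells was at 169 CPM (6 UMIs) and 187 CPM (22 UMIs), and Serpine2, Plat, Tfpi and F3 were at 0 UMIs in both libraries. The 9 mesothelial-like cells of the TAC library, the lining of the heart's surface, held 47 Plat, 19 Tfpi, 15 Thbd, 14 F3 and 7 Procr UMIs and none of Serpine2 or Plau. The 4 sham cells of that class held 3 Plat UMIs and 1 Tfpi UMI and none of the other members. B cell-like cells held 5 Plaur UMIs in sham and 13 in TAC, at 49.9 and 64.5 CPM, while T or NK-like cells held 0 and 1.

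Within TAC macrophage-like cells the Ccr2 gate divided Thbd and Plaur in opposite directions. Thbd was at 15.0 CPM in cells with Ccr2 and 31.1 CPM in cells at 0 Ccr2, 0.481-fold (0.355 to 0.643), where Plaur was 1.87-fold higher (1.55 to 2.26). In sham the Thbd levels were 33.1 and 38.0 CPM, with an interval of the ratio, 0.605 to 1.23, that spans 1. Over all macrophage-like cells Thbd was at 35.2 CPM in sham and 26.1 CPM in TAC, a ratio of 0.742 (0.631 to 0.873). These levels were 5.02% and 4.77% of the blood endothelial ones. The 9 blood endothelial markers reached a median of 0.455% and 2.15% in the same cells, and at most 0.769% and 3.42%. The part of free endothelial RNA in the Thbd values of gated cells was not tested. Sham cells with Timd4, a marker of resident macrophages, were at 47.8 CPM of Thbd against 30.1 CPM at 0 Timd4, 1.59-fold (1.10 to 2.26), and 13 TAC cells with Timd4 stood 3.40-fold higher (1.79 to 5.90) from 13 UMIs.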
